A study of Mus musculus with 8 samples.

Results

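Fatty acid and triglyceride synthesis was followed through 34 genes, taken as the rows of the RPKM tables with the listed gene symbols, out of 41325 gene symbols in each table. The 34 genes cover de novo lipogenesis, elongation, desaturation and glycerolipid assembly, and they were divided into 8 steps of the pathway. RNA-seq was applied to C3H10T1/2, a mouse mesenchymal stem cell line that can become adipocytes, in 3 stable knockdown lines (shKDM4D, shNFIB and shMLL1) and in the control line shControl. The knockdown lines came from puromycin-resistant clones of cells transfected with an shRNA vector. Which clone of each was sequenced is not stated, so that a difference between lines cannot be told apart from one between clones. Each line was sequenced 2 days after confluence before any inducer (day 0) and at day 5 after induction, which gives 8 libraries and 1 library for each condition. Differentiation was started in 10% serum with 10 µg/ml insulin, 1 µM dexamethasone and 0.5 mM isobutylmethylxanthine, and the cells were later kept with insulin and then with serum alone. KDM4D is a histone H3K9 demethylase, NFIB a DNA-binding factor of the nuclear factor I family, and MLL1, encoded by *Kmt2a*, a histone H3K4 methyltransferase.

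An adipocyte makes fatty acids from cytosolic acetyl-CoA. Citrate leaves the mitochondrion and is cleaved to acetyl-CoA, acetyl-CoA carboxylase turns this into malonyl-CoA, and fatty acid synthase builds palmitate from it with NADPH. Palmitate is lengthened by ELOVL enzymes and desaturated by SCD and FADS enzymes. The acyl chains are then added to glycerol 3-phosphate by glycerol phosphate and lysophosphatidate acyltransferases, the phosphate is removed by lipins, and a diacylglycerol acyltransferase adds the last chain to give triglyceride, the main store of a fat cell.

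The sequence before the start of transcription was examined for the members in the table of RefSeq promoters used here, which held 33 promoters of 25 of the 34 genes (GRCm38.p6). *Fads1*, *Dgat1*, *Agpat5*, *Scd1*, *Scd2*, *Gpd1*, *Gpat4*, *Mogat2* and *Dgat2* were not examined. The starts are those of RefSeq, and 11 of the 33 windows reach into an exon of the same gene as GENCODE M21 places it, such as 180 of the 250 bases of *Thrsp*. The 250 bases upstream are printed, 5′ to 3′ on the strand of the gene, for 2 genes whose RPKM rose in shControl cells (*Fasn* and *Agpat2*) and for 1 that fell (*Fads3*), none of which reaches into such an exon. They lie at chr11:120824548-120824797 (minus strand), chr2:26604418-26604667 (minus strand) and chr19:10041298-10041547 (plus strand). Capitals mark each CCAAT box, read as CCAAT or, on the other strand, as ATTGG.
*Fasn*: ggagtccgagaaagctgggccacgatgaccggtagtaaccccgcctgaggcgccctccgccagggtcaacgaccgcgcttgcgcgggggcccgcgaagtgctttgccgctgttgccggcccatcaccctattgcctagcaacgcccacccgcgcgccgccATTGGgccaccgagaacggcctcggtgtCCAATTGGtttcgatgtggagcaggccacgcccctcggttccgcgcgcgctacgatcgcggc
*Agpat2*: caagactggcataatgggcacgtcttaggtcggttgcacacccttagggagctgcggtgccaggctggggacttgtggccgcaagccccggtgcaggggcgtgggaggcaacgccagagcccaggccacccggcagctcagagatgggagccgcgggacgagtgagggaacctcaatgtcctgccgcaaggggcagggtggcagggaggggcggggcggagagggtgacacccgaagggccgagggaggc
*Fads3*: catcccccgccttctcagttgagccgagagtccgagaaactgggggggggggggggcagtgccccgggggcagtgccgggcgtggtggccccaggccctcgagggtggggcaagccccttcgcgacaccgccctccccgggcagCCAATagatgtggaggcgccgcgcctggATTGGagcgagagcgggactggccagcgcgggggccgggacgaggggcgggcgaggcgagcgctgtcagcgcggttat
*Fasn* held CCAAT matches at 90 to 86, 62 to 58 and 59 to 55 bases before its start and *Fads3* at 106 to 102 and 78 to 74, while *Agpat2* held none in this window. CCAAT was present in 14 of the 33 member promoters (42.4%) and in 33.8% of all 32851 promoters of the same length, so the members' share was near that of all genes. The E-box CACGTG was found in 4 member promoters, those of *Slc25a1*, *Elovl5*, *Lpin2* and *Mlxipl* (12.1%, against 6.02% of all promoters). The C/EBP palindrome TTGCNNAA was in 3 (9.09% against 9.56%) and the sterol element core TCACNCCAC in 1 (3.03% against 1.05%). The PPAR-type direct repeat AGGTCANAGGTCA and the nuclear factor I palindrome TGGCNNNNNGCCA were in none of the member promoters and in 0.0335% and 0.703% of all. Both strands were read for each motif, no overlap between different motifs was removed, and a match is a description of the letters only.

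The libraries held between 15800000 and 38200000 mapped reads, as recovered from the RPKM values. *Nfib* was at 9.92 (day 0) and 17.0 RPKM (day 5) in the shControl line and at 2.31 and 3.38 in shNFIB cells. *Kmt2a* was at 5.17 and 5.27 RPKM in shControl and at 2.00 and 1.63 in shMLL1 cells. *Kdm4d* had 2 and 13 reads in shControl cells and 1 and 4 in shKDM4D cells, too few to measure the knockdown closely. Of 8 mesenchymal markers, the 4 shControl and shMLL1 libraries had all 8 over 1 RPKM and the shKDM4D and shNFIB libraries 7. *Thy1* was missing there, at 0.0171 to 0.139 RPKM against 22.6 and 25.0 in shControl cells. The RPKM summed over 6 adipocyte markers (*Adipoq*, *Fabp4*, *Plin1*, *Cidec*, *Lpl* and *Cfd*) was 0.702 or less in all 4 day 0 libraries, with 2 or 3 of the markers at 0 in each. At day 5 it was 796 in the shControl line, 25.5 in the shKDM4D line, 0.936 in the shNFIB line and 2.86 in the shMLL1 line, with 6, 4, 0 and 1 of the 6 markers over 1 RPKM. The marker sum was thus highest in the library in which several of the synthesis genes, such as *Scd1* and *Agpat2*, were highest, and its part in the results was not tested. In these bulk libraries, fewer cells of a type and less RNA per cell cannot be told apart.

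With 1 library per condition there is no estimate of the spread between replicates and no test was run. A log2 ratio of RPKM is therefore given with a 95% interval from the recovered reads, which covers counting error only. Members were counted as higher or lower when they differed by more than 2-fold and had an RPKM over 1 in at least 1 library. By this filter 28 of the 34 genes were expressed, as were 11513 genes in all. *Acss2*, *Acacb*, *Elovl7*, *Mogat1*, *Mogat2* and *Mlxipl* did not reach 1 RPKM in any library. *Mlxipl*, which encodes the glucose-responsive factor ChREBP, had 1 read in the shKDM4D library of day 0 and none elsewhere. The plot of levels by library shows the range that the set spans, from genes at or near 0 to *Scd1* at 272 RPKM in shControl cells at day 5.

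**Figure D1:**
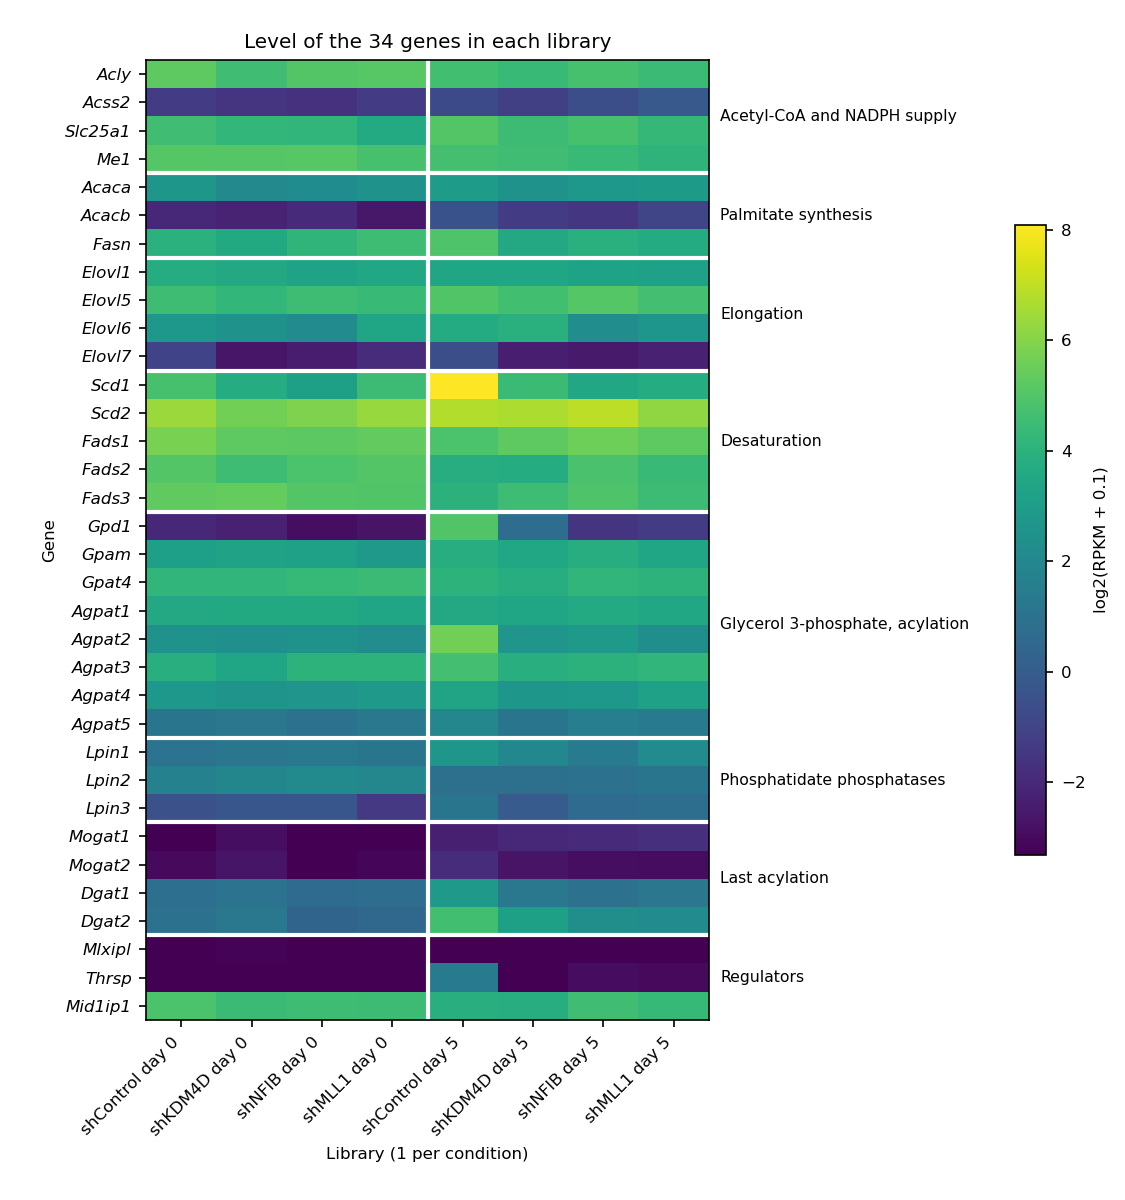
Heat map of log2(RPKM + 0.1) for the 34 genes (rows, grouped by step) in the 8 libraries (columns, 1 per condition, day 0 left and day 5 right of the white line). *Scd1*, *Gpd1*, *Agpat2* and *Dgat2* stand out in the shControl library of day 5, at 272, 31.8, 50.5 and 24.8 RPKM.

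From day 0 to day 5, 9 of the 34 genes more than doubled their RPKM in shControl cells and 3 fell below 0.5 of it. The genes that rose were *Fasn*, *Scd1*, *Gpd1*, *Agpat2*, *Lpin1*, *Lpin3*, *Dgat1*, *Dgat2* and *Thrsp*, and the genes that fell were *Fads2*, *Fads3* and *Mid1ip1*. Among all expressed genes 13.0% rose and 8.56% fell by the same limits, against 32.1% and 10.7% of the 28 members over 1 RPKM, so that the share that fell was near the background. These shares are a description only, since the members were chosen with earlier results of these data known. *Thrsp* passed the RPKM filter only through the shControl library of day 5, so that its call as higher follows from the filter. The median log2 ratio of the 34 genes, taken on RPKM + 0.1, was 0.55, and that of all expressed genes was 0.03. The rise was uneven along the pathway. Summed RPKM of the 4 genes of the last acylation went from 3.58 to 31.9, that of the 8 genes of glycerol 3-phosphate formation and acylation from 66.6 to 163, and that of the 5 desaturases from 236 to 439. The desaturase sum rose through *Scd1* (27.0 to 272 RPKM), while 3 of the 5 desaturases were lower at day 5 and the median log2 ratio of the step was -0.91. The sum of the 4 genes for acetyl-CoA and NADPH supply went from 96.0 to 83.9.

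Of the supply genes, *Acly*, encoding the ATP citrate lyase that makes cytosolic acetyl-CoA, ranged from 20.4 to 38.1 RPKM over the 8 libraries. *Me1*, encoding the malic enzyme that yields NADPH, ranged from 16.8 to 35.0. *Slc25a1*, encoding the mitochondrial citrate carrier, was at 23.7, 18.7, 18.1 and 12.5 RPKM at day 0 in shControl, shKDM4D, shNFIB and shMLL1 cells, and at 32.2, 22.6, 27.3 and 19.0 at day 5. It was the most abundant supply gene of the shControl and shNFIB libraries at day 5, and its day 5 value lay above its day 0 value in each of the 4 lines by less than 2-fold. Its log2 change in shNFIB cells was 0.59, and scaling to *Gapdh* shifts the changes of that line by -0.56. *Slc25a1* was lowest in the shMLL1 line on both days, at a log2 ratio to shControl cells of -0.92 at day 0 and -0.76 at day 5. None of the 3 supply genes over 1 RPKM passed 2-fold in any of the 10 comparisons, but relative to *Gapdh* each did. *Acly* was then at -1.05 in shKDM4D against shControl cells at day 0, *Slc25a1* at -1.13 and -1.12 in shMLL1 against shControl cells at day 0 and day 5, and *Me1* at -1.29 from day 0 to day 5 in shNFIB cells and at -1.01 in shMLL1 against shControl cells at day 5. *Acss2*, encoding an acetyl-CoA synthetase, stayed between 0.206 and 0.808 RPKM.

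*Fasn* (chromosome 11, from 120805846 to 120824547), which encodes fatty acid synthase, was the most abundant gene of palmitate synthesis in each library. At day 0 it was at 15.3, 11.9, 17.5 and 23.3 RPKM in shControl, shKDM4D, shNFIB and shMLL1 cells, and at day 5 at 31.2, 11.7, 14.8 and 12.9. The shControl library was not the highest at day 0, where shNFIB and shMLL1 cells lay above it, but was the highest at day 5. The log2 change from day 0 to day 5 was 1.03 (95% interval 0.97 to 1.08) in the shControl line, -0.03 (-0.11 to 0.05) in the shKDM4D line, -0.24 (-0.31 to -0.16) in the shNFIB line and -0.85 (-0.90 to -0.81) in the shMLL1 line. At day 5 the log2 ratio to shControl cells was -1.42 (-1.48 to -1.35), -1.07 (-1.14 to -1.01) and -1.27 (-1.32 to -1.22) for shKDM4D, shNFIB and shMLL1 cells, all set against 1 shControl library. The change in shControl cells lay at the limit, and it was 0.98 with 1 added to each RPKM and 0.99 by quantile normalization. *Acaca*, encoding acetyl-CoA carboxylase 1, ranged only from 4.0 to 7.84 RPKM and passed 2-fold in no comparison, although it was at -1.10 relative to *Gapdh* in shKDM4D against shControl cells at day 0. *Acacb*, encoding the mitochondrial carboxylase 2, was at 0.140 RPKM at day 0 and 0.645 at day 5 in shControl cells, and at 0.419 or less in the other libraries.

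In elongation the lines parted at *Elovl6*, which encodes the elongase that extends palmitate to stearate. *Elovl6* was at 6.64, 5.48, 4.45 and 10.5 RPKM at day 0 in shControl, shKDM4D, shNFIB and shMLL1 cells, and at 13.1, 15.3, 4.78 and 6.21 at day 5. The shKDM4D library was thus the highest at day 5, followed by shControl, while the shNFIB and shMLL1 libraries were lower. From day 0 to day 5 the log2 change was 0.98 (0.87 to 1.09) in shControl cells, just under 2-fold, and 1.48 (1.35 to 1.60) in shKDM4D cells. In shNFIB cells it was 0.10 (-0.08 to 0.28), and in shMLL1 cells the value fell by 0.76 on the log2 scale (-0.85 to -0.66). Set directly against one another at day 5, shKDM4D exceeded shNFIB cells by a log2 ratio of 1.68 (1.53 to 1.82) and shMLL1 cells by 1.30 (1.20 to 1.39). *Elovl5*, which encodes an elongase of polyunsaturated chains, was the most abundant elongase in each library, at 23.3, 18.4, 23.2 and 20.9 RPKM at day 0 and 31.3, 24.5, 33.8 and 25.8 at day 5 in the 4 lines. These levels moved alike, with log2 changes from 0.31 to 0.55, although the shNFIB change turned to -0.02 relative to *Gapdh*. *Elovl1*, which acts on very long chains, lay between 9.13 and 13.4 RPKM. *Elovl7* was highest in shControl cells, at 0.384 and 0.567 RPKM, against 0.0638 to 0.170 in the 6 knockdown libraries.

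Desaturation was the step with the highest summed RPKM in each library. *Scd1* (chromosome 19, from 44394455 to 44407879) and *Scd2* (from 44293674 to 44306864) encode stearoyl-CoA desaturases, which place the first double bond in stearate and palmitate. *Scd1* was at 27.0, 13.2, 8.80 and 22.4 RPKM at day 0 in shControl, shKDM4D, shNFIB and shMLL1 cells, and at 272, 22.0, 10.99 and 13.4 at day 5. The shControl library of day 5 lay above every other library by 10-fold or more, and shKDM4D and shNFIB cells were already more than 2-fold below shControl at day 0. The log2 change to day 5 was 3.33 (3.28 to 3.38) in the shControl line, 0.74 (0.64 to 0.84) in the shKDM4D line, 0.32 (0.18 to 0.46) in the shNFIB line and -0.74 (-0.81 to -0.67) in the shMLL1 line, and the shNFIB value turned to -0.24 when *Scd1* was taken relative to *Gapdh*. *Scd2*, at 81.8, 50.4, 59.6 and 79.9 RPKM at day 0 and 108, 103, 123 and 73.8 at day 5, did not follow this pattern. Its log2 change was 1.03 (0.98 to 1.08) in the shKDM4D line and 1.05 (1.00 to 1.09) in the shNFIB line, against 0.40 (0.36 to 0.44) in the shControl line and -0.11 (-0.15 to -0.08) in the shMLL1 line. The shKDM4D and shNFIB changes no longer passed 2-fold by quantile normalization (0.996 and 0.90), and the shNFIB change was 0.48 relative to *Gapdh*.

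The composition of the desaturase pair does not depend on a scaling by 1 factor per library. Quantile normalization is not such a scaling and was not applied to these shares. *Scd1* made up 24.8% of the summed *Scd1* and *Scd2* RPKM in the shControl line before induction and 71.6% of it at day 5. Over the same days its share went from 20.7% to 17.6% in the shKDM4D line, from 12.9% to 8.20% in the shNFIB line and from 21.9% to 15.4% in the shMLL1 line. The shControl library of day 5 was the only one of the 8 in which *Scd1* exceeded *Scd2*, with a log2 ratio of 1.33 (1.30 to 1.36), against -1.60 (-1.65 to -1.54) at day 0. The 2 genes are related in sequence, and reads shared between them could have been split by the counting. Their values were also not whole reads by the annotated exon length, so their intervals are approximate, as are those of *Fads1*, *Fads2*, *Fads3* and *Gpam*.

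*Fads1*, *Fads2* and *Fads3* form a cluster on chromosome 19 between 10041569 and 10196877, with *Fads2* on the opposite strand to the others. *Fads1* and *Fads2* encode the front-end desaturases of polyunsaturated fatty acids, and *Fads3* a related desaturase that acts on sphingoid bases. *Fads2* was at 33.1, 23.6, 28.8 and 33.0 RPKM at day 0 in shControl, shKDM4D, shNFIB and shMLL1 cells, and at 13.7, 13.5, 27.6 and 21.5 at day 5. *Fads3* was at 39.3, 42.4, 32.6 and 32.0 RPKM at day 0 and at 16.2, 23.4, 31.0 and 22.8 at day 5. All 3 genes were lower at day 5 in shControl cells, the opposite direction to *Scd1*. The log2 change in shControl cells was -0.91 (-0.98 to -0.85) for *Fads1*, -1.27 (-1.38 to -1.16) for *Fads2* and -1.27 (-1.37 to -1.18) for *Fads3*. In shNFIB cells the changes were 0.39 (0.32 to 0.46), -0.06 (-0.16 to 0.04) and -0.07 (-0.16 to 0.02), and that of *Fads1* turned to -0.18 relative to *Gapdh*. At day 5 *Fads2* was the only one of the 28 expressed members more than 2-fold above shControl cells in a knockdown line, at a log2 ratio of 1.01 (0.89 to 1.13) in shNFIB cells. This ratio lay at the limit and no longer passed it with 1 added to each RPKM, by quantile normalization or by median-of-ratios scaling.

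**Figure D2:**
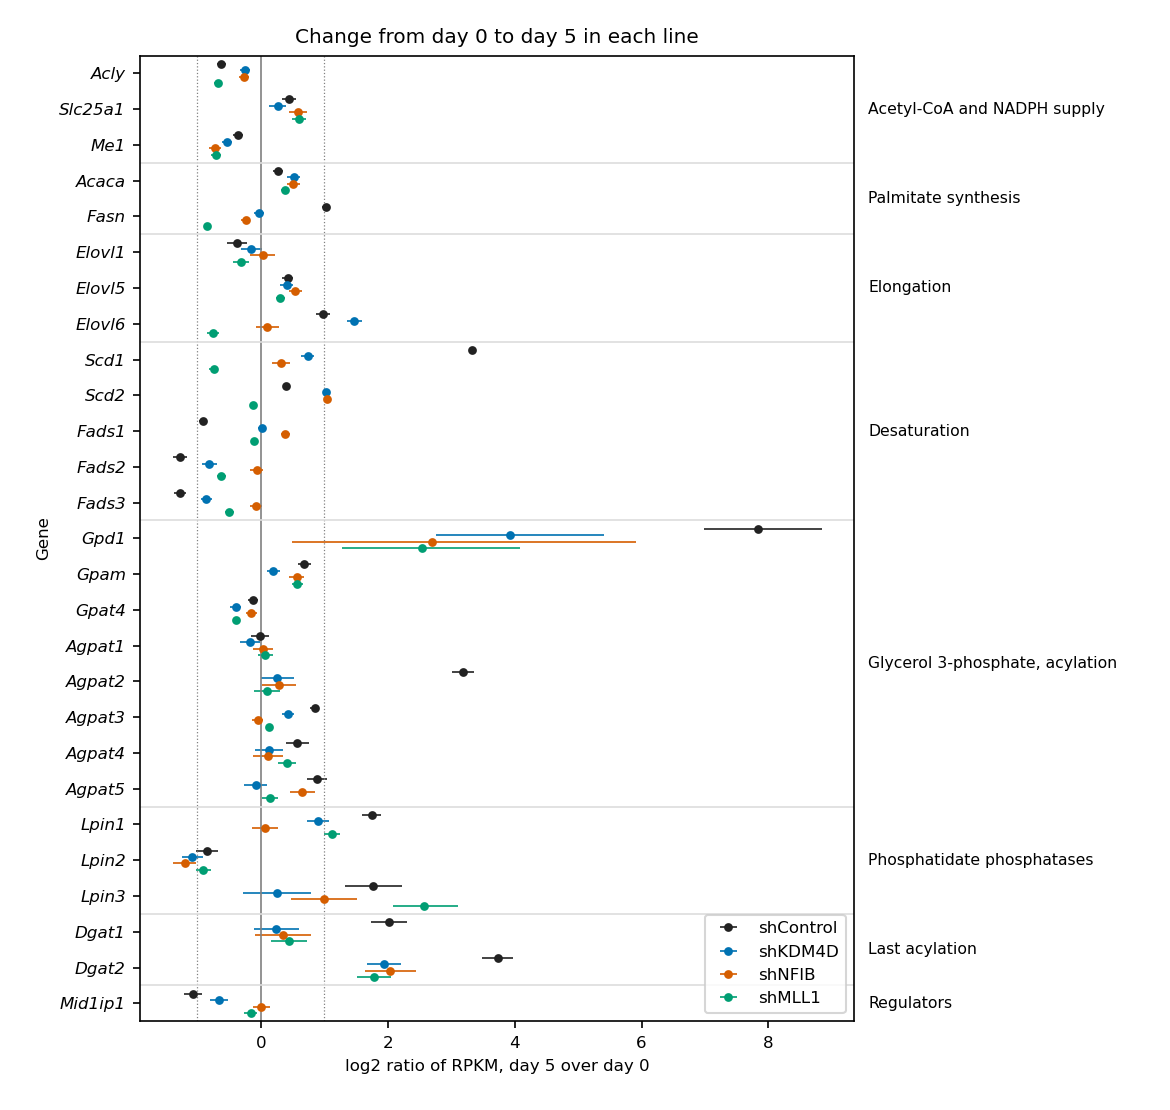
Log2 ratio of RPKM, day 5 over day 0, for 27 of the 28 genes over 1 RPKM (*Thrsp*, at 0 at day 0, is not drawn) in each of the 4 lines. Points are 1 library against 1 library, bars are 95% intervals from counting error only, and dotted lines mark 2-fold. The shControl points of *Scd1* (3.33), *Gpd1* (7.83), *Agpat2* (3.19), *Dgat1* (2.02) and *Dgat2* (3.73) lie to the right of those of the 3 knockdown lines.

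Glycerolipid assembly starts from glycerol 3-phosphate, which the dehydrogenase encoded by *Gpd1* (chromosome 15, from 99717515 to 99725005) makes from a glycolytic intermediate. *Gpd1* was at 0.139, 0.104, 0.0362 and 0.0530 RPKM at day 0 in shControl, shKDM4D, shNFIB and shMLL1 cells (11, 6, 2 and 6 reads), and at 31.8, 1.58, 0.234 and 0.310 at day 5 (1821, 101, 11 and 35 reads). It was covered by few reads in all day 0 libraries, and at day 5 shControl lay highest, then shKDM4D, with shNFIB and shMLL1 cells lowest. The log2 change was 7.83 (6.99 to 8.84) in shControl cells, the largest of the 34 genes with a value above 0 on both days. In shKDM4D cells it was 3.93 (2.76 to 5.41), 2.70 (0.50 to 5.91) in shNFIB and 2.55 (1.28 to 4.09) in shMLL1. The last 2 changes rest on levels under 1 RPKM and were 0.25 and 0.32 with 1 added to each RPKM. In the direct comparison at day 5, shKDM4D cells exceeded shNFIB cells by 2.75 (1.85 to 3.80) and shMLL1 cells by 2.35 (1.78 to 2.95), while shNFIB and shMLL1 cells differed by -0.40 with an interval that included 0 (-1.53 to 0.61).

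Among the acyltransferases of this step, *Agpat2* changed most. *Agpat2* (chromosome 2, from 26593057 to 26604417) encodes a lysophosphatidate acyltransferase that adds the second acyl chain and is needed for fat storage in mouse and human. It was at 5.55, 5.14, 5.61 and 4.71 RPKM at day 0 in shControl, shKDM4D, shNFIB and shMLL1 cells, and at 50.5, 6.17, 6.85 and 5.06 at day 5. The 4 day 0 libraries and the 3 knockdown libraries of day 5 all lay within 4.71 to 6.85, and shControl at day 5 stood alone. The log2 change was 3.19 (3.01 to 3.36) in the shControl line, 0.26 (0.00 to 0.53) in the shKDM4D line, 0.29 (0.02 to 0.56) in the shNFIB line and 0.10 (-0.10 to 0.31) in the shMLL1 line, and the shNFIB value turned to -0.28 relative to *Gapdh*. Set against shControl cells at day 5, the log2 ratio was -3.03 (-3.22 to -2.85), -2.88 (-3.09 to -2.69) and -3.32 (-3.48 to -3.17) in shKDM4D, shNFIB and shMLL1 cells, after day 0 ratios of -0.11 (-0.37 to 0.14), 0.02 (-0.24 to 0.27) and -0.24 (-0.46 to -0.02).

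The other enzymes of this step moved less. *Agpat1*, *Agpat3*, *Agpat4* and *Agpat5*, the remaining lysophosphatidate acyltransferases, and *Gpam* and *Gpat4*, whose products add the first acyl chain, passed 2-fold in none of the 10 comparisons. *Agpat1* had the narrowest range of the 28 expressed members, at 10.6 to 12.6 RPKM. *Agpat5* came nearest to the limit of this group, with a log2 change of 0.88 (0.72 to 1.04) in shControl cells. *Agpat3* followed, with 0.85 (0.78 to 0.92) in the shControl line against 0.43 (0.34 to 0.52) in the shKDM4D line and -0.05 (-0.13 to 0.04) in the shNFIB line. *Gpam* was higher at day 5 in each line, with log2 changes of 0.69 in the shControl line, 0.20 in the shKDM4D line, 0.57 in the shNFIB line and 0.57 in the shMLL1 line. Scaling to *Gapdh* shifts the shNFIB changes by -0.56, about as much as *Gpam* rose there. Within the 5 AGPAT genes the *Agpat2* share of the summed RPKM went from 13.9% to 49.9% in the shControl line, from 14.3% to 15.5% in the shKDM4D line, from 13.3% to 15.3% in the shNFIB line and from 11.4% to 10.9% in the shMLL1 line.

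Of the lipins, phosphatases that turn phosphatidate into diacylglycerol, the most abundant changed from *Lpin2* to *Lpin1* in all 4 lines. *Lpin1* was at 1.90, 2.12, 2.32 and 2.04 RPKM at day 0 in shControl, shKDM4D, shNFIB and shMLL1 cells, and at 6.39, 3.97, 2.44 and 4.47 at day 5. *Lpin2* was at 3.14, 3.71, 4.34 and 3.85 RPKM at day 0 and at 1.75, 1.76, 1.89 and 2.06 at day 5. The day 5 levels of *Lpin1* were spread over the lines, whereas those of *Lpin2* lay close together. The log2 ratio of *Lpin1* to *Lpin2* went from -0.72 (-0.88 to -0.56) to 1.87 (1.71 to 2.04) in the shControl line and, at day 5, reached 1.17 (1.01 to 1.34) in the shKDM4D line, 0.37 (0.16 to 0.58) in the shNFIB line and 1.12 (1.00 to 1.24) in the shMLL1 line.

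The log2 change of *Lpin2* lay near the 2-fold limit in each line, at -0.84 (-1.01 to -0.68) in the shControl line, -1.08 (-1.24 to -0.91) in the shKDM4D line, -1.20 (-1.38 to -1.03) in the shNFIB line and -0.90 (-1.02 to -0.79) in the shMLL1 line. The change of *Lpin1* was spread more widely, at 1.75 (1.60 to 1.90), 0.91 (0.73 to 1.08), 0.07 (-0.13 to 0.28) and 1.13 (1.00 to 1.25) for the lines in that order. The *Lpin1* change of shMLL1 cells no longer passed 2-fold with 1 added to each RPKM (0.84), by quantile normalization (0.76) or by median-of-ratios scaling (0.96). The *Lpin2* changes of shKDM4D and shNFIB cells no longer did with 1 added (-0.77 and -0.89). By quantile normalization those of shControl (-1.06) and shMLL1 cells (-1.32) did pass it. In shMLL1 cells *Lpin2* also passed by median-of-ratios scaling (-1.07) and relative to *Gapdh* (-1.02). *Lpin3* was at 0.610, 0.734, 0.740 and 0.276 RPKM at day 0 and at 2.07, 0.877, 1.47 and 1.65 at day 5. Unlike *Agpat2* and the DGAT genes, it rose more in shMLL1 than in shControl cells by the ratio of RPKM. The log2 change was 2.58 (2.08 to 3.10) in shMLL1 cells, from the lowest day 0 value, of 39 reads. In shControl cells it was 1.77 (1.32 to 2.22), from 60 reads, a difference of 0.81 (0.16 to 1.46). These day 0 levels lay under 1 RPKM, and the difference rests on them. The day 5 log2 ratio of *Lpin3* to shControl cells was -0.33 (-0.64 to -0.02) in shMLL1 cells and -1.24 (-1.67 to -0.82) in shKDM4D cells. With 1 added to each RPKM the *Lpin3* values no longer passed 2-fold in shControl cells (0.93) or against them in shKDM4D cells (-0.71).

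*Dgat1* and *Dgat2* encode the unrelated enzymes of the last acylation. *Dgat1* (chromosome 15, from 76502015 to 76511953) was at 1.70, 1.93, 1.49 and 1.60 RPKM at day 0 in shControl, shKDM4D, shNFIB and shMLL1 cells, and at 6.86, 2.29, 1.90 and 2.18 at day 5. *Dgat2* (chromosome 7, from 99153658 to 99182719) was at 1.86, 2.29, 1.20 and 1.31 RPKM at day 0 and at 24.8, 8.78, 4.93 and 4.49 at day 5. Both were highest in shControl cells at day 5, but *Dgat2* was higher at day 5 than at day 0 in the knockdown lines too. The log2 change of *Dgat2* was 3.73 (3.49 to 3.98) in the shControl line, 1.94 (1.67 to 2.22) in the shKDM4D line, 2.04 (1.65 to 2.45) in the shNFIB line and 1.78 (1.52 to 2.05) in the shMLL1 line. For *Dgat1* it was 2.02 (1.73 to 2.30) in the shControl line, 0.25 (-0.11 to 0.61) in the shKDM4D line, 0.35 (-0.09 to 0.79) in the shNFIB line and 0.44 (0.17 to 0.72) in the shMLL1 line, and the last turned to -0.10 by quantile normalization. The difference of the *Dgat2* change from that of shControl cells was close to that of *Dgat1*. It was -1.79 (-2.15 to -1.44), -1.69 (-2.15 to -1.24) and -1.95 (-2.31 to -1.60) in shKDM4D, shNFIB and shMLL1 cells for *Dgat2*, and -1.77 (-2.22 to -1.32), -1.67 (-2.17 to -1.16) and -1.57 (-1.96 to -1.18) for *Dgat1*.

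The share of *Dgat2* in the summed RPKM of the 2 DGAT genes was higher at day 5 than at day 0 in every line. It went from 52.4% to 78.3% in the shControl line, from 54.3% to 79.3% in the shKDM4D line, from 44.6% to 72.2% in the shNFIB line and from 44.9% to 67.3% in the shMLL1 line. The DGAT pair and the lipins therefore moved in the same direction in all 4 lines, whereas *Scd1* and *Agpat2* became the most abundant gene of their family in shControl cells and in none of the 3 knockdown lines. *Mogat1* and *Mogat2*, which encode monoacylglycerol acyltransferases, stayed at 0.202 RPKM or less.

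**Figure D3:**
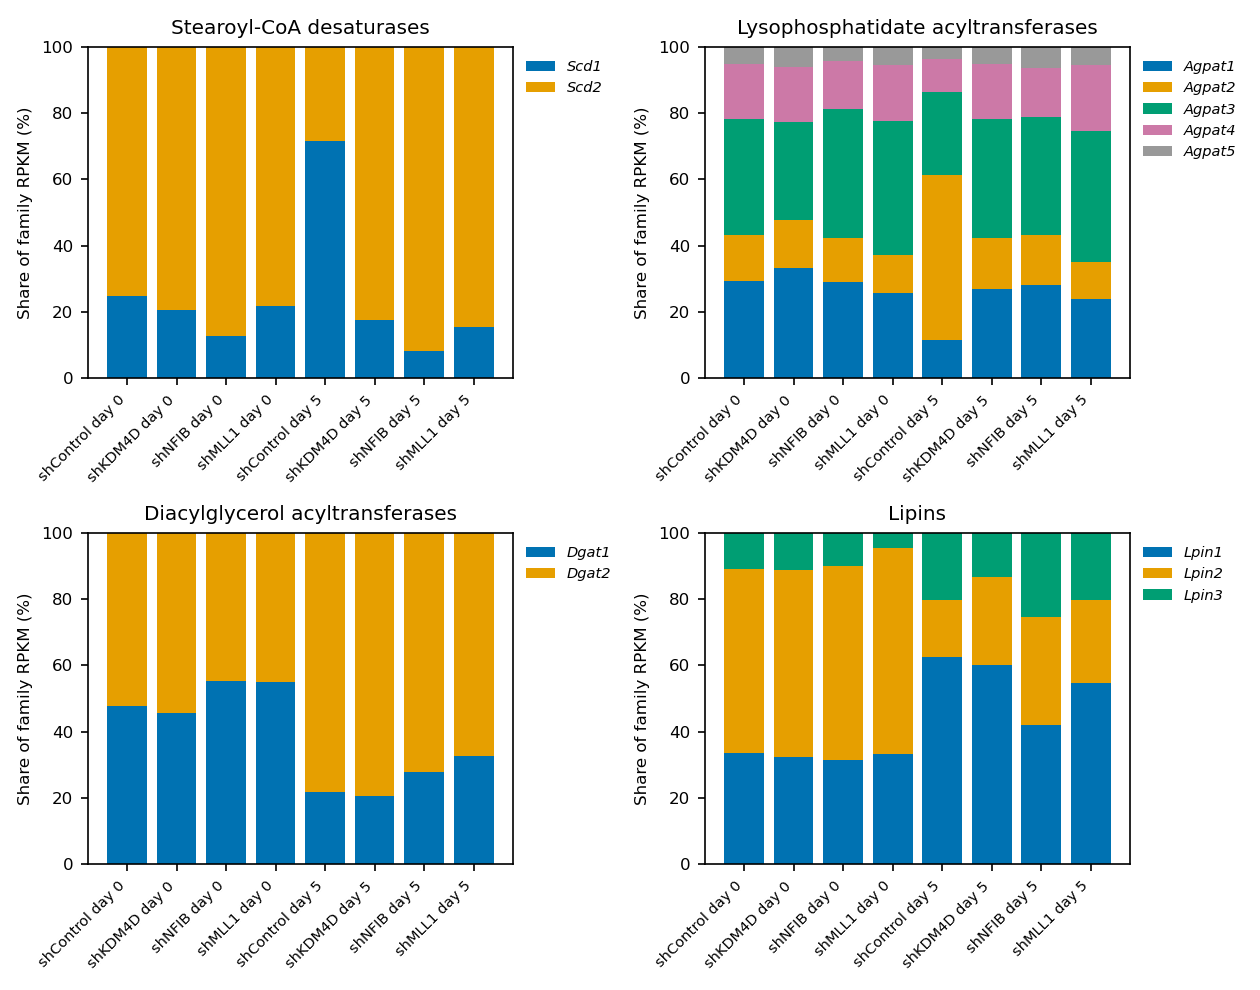
Share of each gene in the summed RPKM of its family (percent, stacked bars) in the 8 libraries, day 0 left and day 5 right, for the SCD, AGPAT, DGAT and lipin genes. *Scd1* and *Agpat2* reach 71.6% and 49.9% in shControl cells at day 5, while *Dgat2* and *Lpin1* have larger shares at day 5 than at day 0 in all 4 lines.

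Among the regulators, *Thrsp* (chromosome 7, from 97412938 to 97417730), which encodes the lipogenic protein Spot 14, was read only after induction. It was at 0 in all 4 day 0 libraries and at 2.60, 0, 0.0288 and 0.0240 RPKM at day 5 in shControl, shKDM4D, shNFIB and shMLL1 cells, from 110, 0, 1 and 2 reads. With the day 0 library set at a floor of 3 reads, *Thrsp* was at least 50.5-fold higher at day 5 in shControl cells, and with the same floor shKDM4D cells were at least 41.0-fold lower than shControl cells at day 5. The log2 ratio to shControl cells was -6.49 (-11.81 to -3.99) in shNFIB cells and -6.76 (-9.82 to -4.87) in shMLL1 cells. Its paralog *Mid1ip1* (chromosome X, from 10715013 to 10719690), whose product binds acetyl-CoA carboxylase, went the other way in shControl cells. *Mid1ip1* was at 29.3, 21.9, 23.6 and 22.2 RPKM at day 0 in shControl, shKDM4D, shNFIB and shMLL1 cells, and at 14.0, 13.9, 23.7 and 19.9 at day 5. The log2 change was -1.07 (-1.21 to -0.93) in the shControl line, -0.66 (-0.81 to -0.51) in the shKDM4D line, 0.01 (-0.13 to 0.15) in the shNFIB line and -0.16 (-0.26 to -0.06) in the shMLL1 line, so that shKDM4D cells ended beside shControl cells and the other lines above them.

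Within the knockdown lines fewer of the 34 genes were more than 2-fold higher at day 5 than at day 0 than the 9 of shControl cells. In shKDM4D cells 4 rose (*Elovl6*, *Scd2*, *Gpd1* and *Dgat2*) and 1 fell (*Lpin2*), against 12.8% and 8.44% of all expressed genes. Relative to *Gapdh*, *Scd1* (1.21) and *Lpin1* (1.37) also passed 2-fold higher in that line, and *Lpin2* (-0.61) no longer passed it. In shNFIB cells 4 were higher (*Scd2*, *Gpd1*, *Dgat2* and *Thrsp*, the last by 1 read) and *Lpin2* lower, against 12.6% and 4.96%. In shMLL1 cells 5 were higher (*Gpd1*, *Lpin1*, *Lpin3*, *Dgat2* and *Thrsp*, the last by 2 reads) and 0 lower, against 20.4% and 6.89%. With 1 added to each RPKM, *Scd2* and *Dgat2* were left in shNFIB cells and *Lpin3* and *Dgat2* in shMLL1 cells. The shares of higher genes among the 28 members over 1 RPKM, 14.3%, 14.3% and 17.9%, were thus near the background of each line, while that of shControl cells lay above its own. The median log2 ratio on RPKM + 0.1 was 0.21 in the shKDM4D line, 0.30 in the shNFIB line and 0.12 in the shMLL1 line, against 0.03, 0.09 and 0.17 over all expressed genes. Relative to *Gapdh* the shNFIB median turned to -0.22, and by quantile normalization the shMLL1 median turned to -0.10.

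At day 0 few members differed from shControl cells by more than 2-fold in any knockdown line. The lower ones were 3.57%, 7.14% and 7.14% of the 28 over 1 RPKM in shKDM4D, shNFIB and shMLL1 cells. These shares were near those of all expressed genes. In shKDM4D cells 1 gene was more than 2-fold lower (*Scd1*, log2 ratio -1.04, from -1.13 to -0.94) and 0 were higher, against 4.26% and 1.98% of all expressed genes. In shNFIB cells *Scd1* (-1.62, from -1.73 to -1.51) and *Gpd1* (2 reads) were lower and 0 higher, against 6.05% and 2.95%. In shMLL1 cells *Gpd1* (6 reads) and *Lpin3* (-1.14, from -1.76 to -0.54) were lower and 0 higher, against 7.43% and 1.67%. The *Gpd1* intervals included 0 in both, and the *Scd1* ratio was -0.98 with 1 added to each RPKM in shKDM4D cells and -0.98 relative to *Gapdh* in shNFIB cells. The *Lpin3* ratio was -0.33 with 1 added to each RPKM and -0.79 by quantile normalization, and those of *Gpd1* were -0.14 and -0.11 with 1 added. The medians of the 34 genes were -0.14, -0.16 and -0.14 in shKDM4D, shNFIB and shMLL1 cells, and relative to *Gapdh* the shNFIB median turned to 0.39.

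At day 5 each knockdown line is compared with the same shControl library, so the comparisons are not independent of one another, and each is given on its own. In shKDM4D cells 8 of the 34 genes (28.6% of the 28 over 1 RPKM) were more than 2-fold lower (*Fasn*, *Scd1*, *Gpd1*, *Agpat2*, *Lpin3*, *Dgat1*, *Dgat2* and *Thrsp*) and 0 higher, against 4.57% and 1.88% of all expressed genes. In shNFIB cells 9 (32.1%) were lower (*Fasn*, *Elovl6*, *Scd1*, *Gpd1*, *Agpat2*, *Lpin1*, *Dgat1*, *Dgat2* and *Thrsp*) and *Fads2* higher, against 5.67% and 5.54%. In shMLL1 cells 8 (28.6%) were lower (*Fasn*, *Elovl6*, *Scd1*, *Gpd1*, *Agpat2*, *Dgat1*, *Dgat2* and *Thrsp*) and 0 higher, against 4.02% and 5.25%. The share of lower genes was thus above the background in each comparison. The members were chosen with earlier results of these data known, so this is a description only. *Thrsp* passed the RPKM filter only through the shControl library of day 5, so that its lower calls follow from the filter. The *Elovl6* ratio of shMLL1 cells was -0.96 with 1 added to each RPKM. By step, the summed RPKM of the last acylation was 31.9 in shControl cells and 11.3, 7.03 and 6.90 in shKDM4D, shNFIB and shMLL1 cells. That of glycerol 3-phosphate formation and acylation was 163 against 66.1, 76.5 and 74.0, and that of elongation 55.3 against 50.3, 48.4 and 41.2. The medians of the 34 genes were -0.42, -0.28 and -0.41, against 0.01, 0.09 and 0.07 over all expressed genes.

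The size of the difference was greatest for *Gpd1* and *Scd1* among the members read in all 8 libraries. Set against shControl cells at day 5, the log2 ratio was -4.33 (-4.64 to -4.04), -7.08 (-8.09 to -6.24) and -6.68 (-7.21 to -6.20) for *Gpd1* in shKDM4D, shNFIB and shMLL1 cells. For *Scd1* it was -3.63 (-3.69 to -3.57), -4.63 (-4.73 to -4.53) and -4.34 (-4.40 to -4.28). *Dgat2* gave -1.50 (-1.64 to -1.36), -2.33 (-2.53 to -2.13) and -2.46 (-2.61 to -2.32), and *Dgat1* -1.58 (-1.86 to -1.31), -1.85 (-2.19 to -1.52) and -1.65 (-1.89 to -1.42). For *Scd1*, *Gpd1* and *Dgat2* the shKDM4D library lay nearer to shControl than the others did. The direct log2 ratio of shKDM4D to shNFIB cells at day 5 was 1.00 (0.89 to 1.12) for *Scd1* and 0.83 (0.61 to 1.05) for *Dgat2*, whereas for *Dgat1* it was 0.27 and for *Agpat2* -0.15, with intervals that included 0 (-0.12 to 0.66 and -0.41 to 0.11). The summed adipocyte markers were at 25.5 RPKM in the shKDM4D line, 2.86 in the shMLL1 line and 0.936 in the shNFIB line. Of the 7 members lower in all 3 lines, *Scd1*, *Gpd1* and *Dgat1* had this order. *Fasn* and *Agpat2* were highest of the 3 in shNFIB cells, *Dgat2* was higher in shNFIB than in shMLL1 cells, and *Thrsp* was lowest in shKDM4D cells. Direct intervals included 0 for *Gpd1* and *Dgat2* between shNFIB and shMLL1 cells and for *Dgat1* between all 3 lines. The part of the markers in the ratios was not tested.

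**Figure D4:**
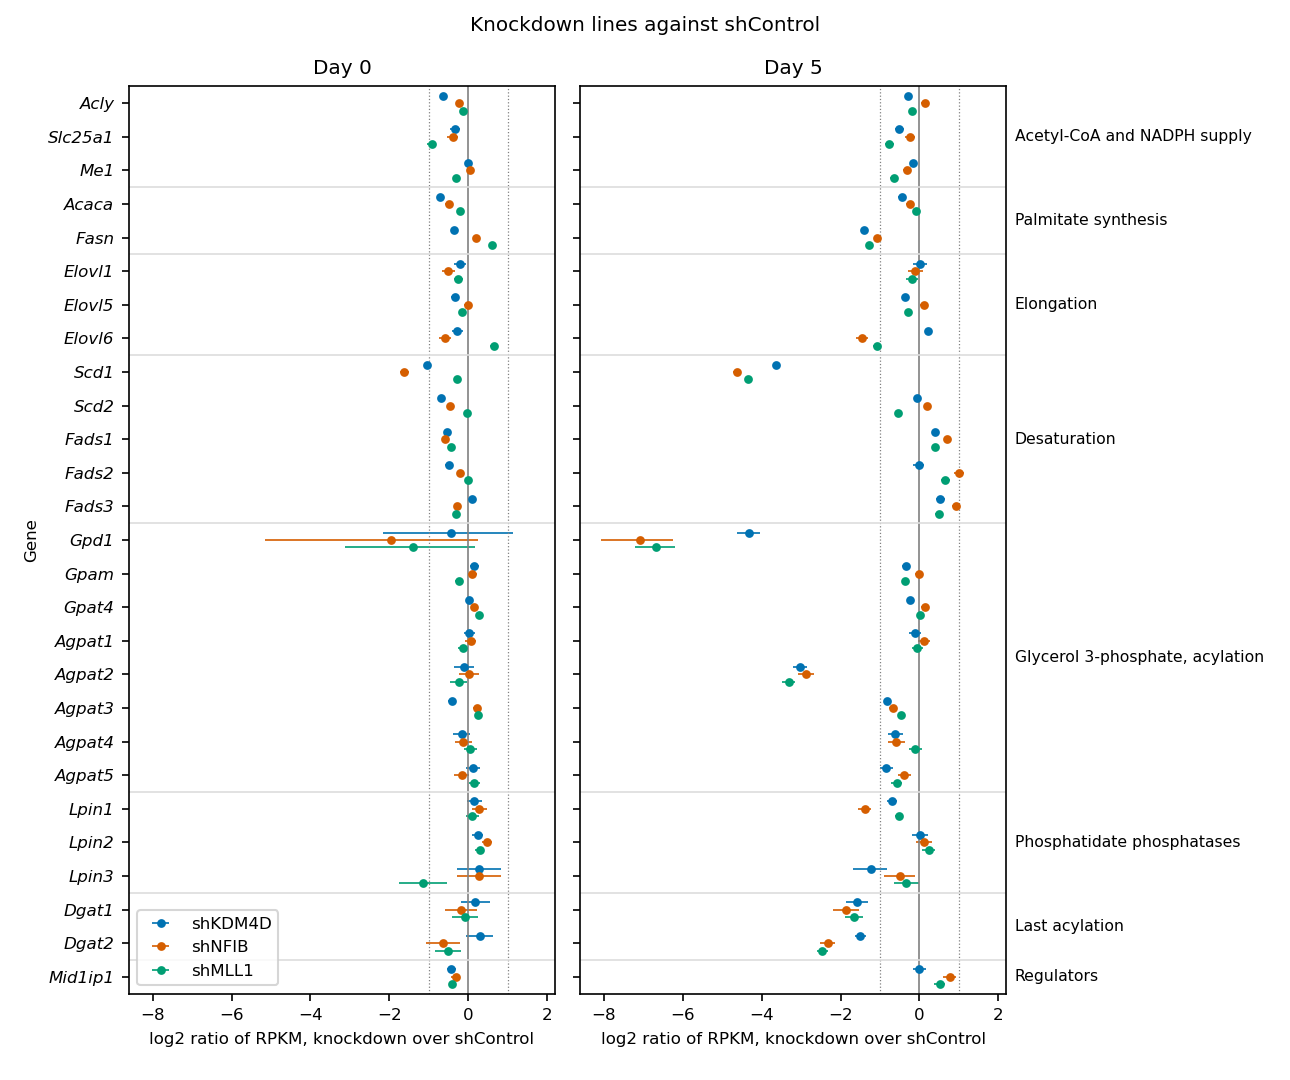
Log2 ratio of RPKM, knockdown over shControl, for 27 of the 28 genes over 1 RPKM (*Thrsp* is not drawn) at day 0 (left) and day 5 (right). Points are 1 library against 1 library, bars are 95% counting intervals, dotted lines mark 2-fold, and the 3 points of a gene share the shControl library. *Scd1*, *Gpd1*, *Agpat2*, *Dgat1* and *Dgat2* lie left of the 2-fold line at day 5 in each line, while *Agpat2* and *Dgat1* lie between the 2-fold lines at day 0.

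In all, 13 of the 34 genes passed 2-fold in none of the 10 comparisons although they were over 1 RPKM. These were *Acly*, *Slc25a1*, *Me1*, *Acaca*, *Elovl1*, *Elovl5*, *Fads1*, *Gpam*, *Gpat4*, *Agpat1*, *Agpat3*, *Agpat4* and *Agpat5*. They make up 46.4% of the 28 members over 1 RPKM, against 60.2% of all expressed genes that passed 2-fold in none. Relative to *Gapdh*, 4 of the 13 (*Acly*, *Slc25a1*, *Me1* and *Acaca*) passed 2-fold in at least 1 comparison. The share past 2-fold in none was then lower among all expressed genes too, at 41.9%, against 32.1% of the 28 members.

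A further 37 genes of the pathway, which are partners of elongation, other glycerol phosphate and NADPH genes, mitochondrial synthesis genes and sterol-sensing regulators, were counted by the same limits, and 30 of them were over 1 RPKM. In shControl cells 4 rose (*Hacd2*, *Cyb5a*, *Gpat3* and *Nr1h3*) and 2 fell (*Srebf2* and *Insig1*). These are 13.3% and 6.67% of the 30, near the 13.0% and 8.56% of all expressed genes. From day 0 to day 5, 4 were higher and 5 lower in the shKDM4D line, 2 and 0 in the shNFIB line and 2 and 4 in the shMLL1 line. In that order of lines, these are 13.3% and 16.7%, 6.67% and 0%, and 6.67% and 13.3% of the 30. Among all expressed genes the shares were 12.8% and 8.44%, 12.6% and 4.96%, and 20.4% and 6.89%. *Gpat3*, encoding another glycerol phosphate acyltransferase, which acts at the same step as *Gpam* and *Gpat4*, was at 2.73, 3.05, 1.64 and 2.63 RPKM at day 0 in shControl, shKDM4D, shNFIB and shMLL1 cells, and at 14.8, 1.52, 1.96 and 3.15 at day 5, so that its shControl library of day 5 stood apart like that of *Agpat2*. *Hacd2*, encoding 1 of the dehydratases of the elongation cycle, was at 3.53, 3.36, 4.10 and 3.54 RPKM at day 0 and at 19.1, 8.05, 7.56 and 6.04 at day 5. *Nr1h3*, encoding the liver X receptor alpha, was at 0.0610 RPKM or less at day 0 and at 2.63, 0.239, 0.201 and 0.396 at day 5. *Cyb5a*, encoding the electron carrier of the desaturases, rose in all 4 lines, from 39.4 to 132, from 36.6 to 110, from 28.3 to 63.6 and from 25.6 to 80.8 RPKM. *Srebf2* and *Insig1*, which act in sterol sensing, were lower at day 5 in all 4 lines, by less than 2-fold in shNFIB cells. *Srebf2* went from 31.1 to 8.12, 20.9 to 9.59, 17.1 to 12.7 and 28.6 to 11.5 RPKM in the same order of lines. *Insig1* went from 29.8 to 13.3, 13.8 to 6.87, 16.4 to 10.1 and 23.1 to 8.22 RPKM. The counts of higher and lower genes at day 5 against shControl cells were 0 and 3 of 37 in the shKDM4D line, 0 and 4 in the shNFIB line and 0 and 3 in the shMLL1 line, with *Hacd2*, *Gpat3* and *Nr1h3* in each and *Cyb5a* also in the shNFIB line. The shares of lower genes were 10.0%, 13.3% and 10.0% of the 30, against 4.57%, 5.67% and 4.02% of all expressed genes. *Nr1h3* passed the RPKM filter only through the shControl library of day 5, so that its calls as lower follow from the filter.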

How the data were processed

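RNA-seq was done on 8 libraries of C3H10T1/2 cells. Per the study's methods, the authors aligned their reads with CLC Genomics Workbench against GRCm38 and deposited RPKM values per gene, which correct for exon length and for mapped reads. The methods also name a quantile normalization for fold changes, which was not visible in these values.

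The rows were matched by symbol to GENCODE M21 (40851 of 41325 symbols), all 34 members included. Reads were recovered as RPKM times annotated exon length times the depth of the library. Between 96.2% and 96.6% of values between 1 and 1000 reads were within 0.02 of a whole read, and 6 of the 34 members were not (*Scd1*, *Scd2*, *Fads1*, *Fads2*, *Fads3* and *Gpam*), whose reads were rounded. Groups were taken from the sample labels. A log2 ratio was taken on RPKM without a pseudocount, with an exact conditional (Clopper-Pearson) 95% interval from the 2 read numbers. Medians were taken on log2(RPKM + 0.1), which understates low genes. The interval of a difference between changes was the normal interval of the 4 read numbers, for genes with at least 10 reads in each library. The procedure was run on simulated reads with counting error only, which hold no spread between cultures or clones and so do not bear on it. The alternatives were no filter on RPKM, 1 added to each RPKM, quantile normalization, median-of-ratios scaling and the ratio to *Gapdh*.

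The members and the gene lists were chosen with earlier results of these data known. Values in every library were given for members past 2-fold in shControl cells or at day 5 in a knockdown line. They were also given for the most abundant gene of each step in shControl cells at day 5. *Scd2* and *Lpin2* were added for their families. Further genes of the pathway were named if they passed 2-fold in shControl cells or at day 5 in each knockdown line. Python 3.11.15, numpy 2.4.6, pandas 2.3.3, scipy 1.17.1 and matplotlib 3.10.9 were used.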

Additional observations from a re-analysis of the deposited data

Results flagged for a closer look

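Among members that changed by more than 2-fold in at least 1 of the 2 lines compared, the direction of the change from day 0 to day 5 differed between shControl and a knockdown line for *Fasn* and *Scd1*, with counting intervals that left out 0. *Fasn* changed by 1.03 on the log2 scale in shControl cells and by -0.24 in shNFIB and -0.85 in shMLL1 cells. *Scd1* changed by 3.33 in shControl cells and by -0.74 in shMLL1 cells. Changes under 2-fold in both lines also differed in direction for *Elovl6* (0.98 in shControl and -0.76 in shMLL1 cells), *Scd2* (0.40 and -0.11 in the same lines) and *Fads1* (-0.91 in shControl and 0.39 in shNFIB cells). The difference was not tested, since each line has 1 library per day.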

How the results depend on the processing

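No paired analysis was possible because each condition has 1 library. Directions of the members' 235 ratios whose counting interval left out 0 turned in 3 under quantile normalization, 2 under median-of-ratios scaling and 25 relative to *Gapdh*. *Gapdh* itself moved the median of all genes by 0.47 for shKDM4D and -0.56 for shNFIB cells from day 0 to day 5, by -0.40, 0.64 and -0.21 for the shKDM4D, shNFIB and shMLL1 lines against shControl at day 0, by -0.36 for shMLL1 cells at day 5, and by -0.12 for shMLL1 cells from day 0 to day 5, where quantile normalization moved it by -0.22 and median-of-ratios scaling by -0.16. The day 5 counts of lower members against shControl cells stayed within 1.5 times under each alternative.

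Without a filter on RPKM, 2 members were lower from day 0 to day 5 in the shKDM4D line, 7 were higher in the shNFIB line and 9 in the shMLL1 line. Against shControl at day 0 the counts were then 3 higher and 2 lower in the shKDM4D line, 4 lower in the shNFIB line and 4 lower in the shMLL1 line, and 1 was higher in the shMLL1 line at day 5. With 1 added to each RPKM, 0 were lower from day 0 to day 5 in the shKDM4D line and 0 in the shNFIB line, and 2 were higher in the shNFIB line and 2 in the shMLL1 line. At day 0 the lower members were then 0 in the shKDM4D line, 1 in the shNFIB line and 0 in the shMLL1 line, and 0 were higher in the shNFIB line at day 5. Quantile normalization gave 1 lower from day 0 to day 5 in the shMLL1 line, 1 lower in the shMLL1 line at day 0 and 0 higher in the shNFIB line at day 5, and median-of-ratios scaling gave 2 lower from day 0 to day 5 in the shMLL1 line and 0 higher in the shNFIB line at day 5. Relative to *Gapdh*, the members lower from day 0 to day 5 were 0 in the shKDM4D line, 2 in the shNFIB line and 1 in the shMLL1 line, and at day 0 4 were lower in the shKDM4D line, 1 higher and 1 lower in the shNFIB line. The cause was not tested, except that leaving out the filter adds genes at or under 1 RPKM.

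Low genes limit what the depth can show. *Gpd1* had 2 to 11 reads in the day 0 libraries, and the intervals cover counting error only, since 1 library per condition leaves the spread between cultures unknown.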
